A study of Oncorhynchus mykiss with 8 samples.

Results

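The livers of small and large rainbow trout of the Sept. lot were compared on 4 arrays, which were chosen by their titles from the 8 liver arrays of the series. The Sept. lot was spawned in September from the Lyndon strain, a domesticated line of Oncorhynchus mykiss, by crossing a single male with several females, so that its families were half-sibs. The fish were reared together, were fed ad libitum according to the labels but by rations set from biomass and water temperature according to the methods, were fasted before weighing, and were sampled as immature, growing juveniles more than a year old. Both arms shared strain, sire, tank conditions and season, and differed in body size within each family. Each array set mRNA of a pool of small fish against mRNA of a pool of large fish, labelled with Alexa Fluor 555 and Alexa Fluor 647, and each pool held the livers of 5 fish, 1 from each family. There were 2 pairs of pools, and both went on 2 arrays with the dyes exchanged (a dye flip). Arrays on which the small fish carried Alexa Fluor 647 are called 647 arrays here, and those on which they carried Alexa Fluor 555 are called 555 arrays. By the methods, a pair held either the smallest fish of each family and its second largest or the largest and its second smallest, but which became pool pair 1 is not given in the sources used here.

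All values are log2 ratios of small over large fish, so that 1 stands for a doubling in the small fish, 0 for no difference and negative values for higher expression in the large fish. Of 43603 probes on the array, 38679 had a value on all 4 Sept. arrays and were tested. Since a dye flip repeats the same RNA, its 2 arrays were averaged, which leaves 2 replicates, the pool pairs. A p-value then measures the spread between pools and not between single fish. The probes were designed on Atlantic salmon sequences, so the trout mRNA was hybridized to probes of another species. What this does to the ratios was not tested. The gene names of the probes are matches to other species. Only 1494 probes have a name, and 273 of these are named by nothing but the study's lists of Sept. liver genes, which were called on these same arrays. Members of this kind are not independent evidence of a direction, and counts are therefore also given for the members named outside those lists. Such names come from the platform and from the study's muscle lists and Dec. liver list. The muscle lists include probes called in muscle of the same Sept. fish, so these counts are not fully independent of the fish either. A ratio holds no level, so whether the pools carried liver markers at liver levels could not be checked.

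The liver sets the pace of growth in a fish by answering growth hormone with insulin-like growth factors and by making the proteins that bind these factors in blood. It also makes the plasma proteins and most of the cholesterol, stores sugar and fat, breaks down amino acids, and is crossed by large amounts of blood, so that a liver extract carries red blood cell RNA. Fish red blood cells keep their nucleus and go on transcribing globin genes.

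The 4 arrays agreed poorly across all probes. Each array had 41284 to 41918 values, with medians between -0.03 and 0.06 and SDs between 0.44 and 0.51 over the probes tested. Across probes, which are not independent, the dye flip correlated at r = -0.149 in pool pair 1 and 0.0644 in pool pair 2. Arrays of different pools in the same dye orientation correlated at 0.0815 (647 arrays) and 0.148 (555 arrays). The means of the pool pairs correlated at -0.0005, and 48.4% of the probes had 1 sign in both. All 4 arrays had the same sign for 3750 probes, or 9.70% of those tested, with 1933 probes (5.00%) above 0 and 1817 (4.70%) below 0.

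A probe is called past the thresholds of the study where its unadjusted p does not exceed 0.05 and its fold change reaches 1.2. In limma 1054 of the 38679 probes, or 2.72%, were past them, which is below the 5% that such a p threshold lets pass where nothing differs. Of these, 587 (1.52%) were higher in small fish and 467 (1.21%) in large fish. This split differed with the dye orientation, with 682 against 924 on the 647 arrays alone and 1491 against 424 on the 555 arrays alone. Without pool pair 1 the count of probes past the thresholds was 1832, and without pool pair 2 it was 1212. No probe had an adjusted p under 0.05 in limma, where 1054 had an unadjusted p of 0.05 or less, and the smallest adjusted p was 1.00. This holds for every gene below. With the fold threshold left away the count stayed at 1054, since the smallest ratios past the thresholds were already 0.33 and -0.32. Of the probes past the thresholds 589 had the same sign on all 4 arrays, 356 above and 233 below 0. The ratios over all probes had a median of 0.00 and an SD of 0.23, and ranged from -1.99 to 2.24. A ratio of 2-fold or more was found for 282 probes, of which 131 kept 1 sign on all 4 arrays and 17 of those had a name. Named probes past the thresholds numbered 154, against 900 without a name. Of the 1189 tested probes named outside the study's Sept. liver lists, 38 were past them (3.20%), 17 higher in small and 21 higher in large fish.

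**Figure D1:**
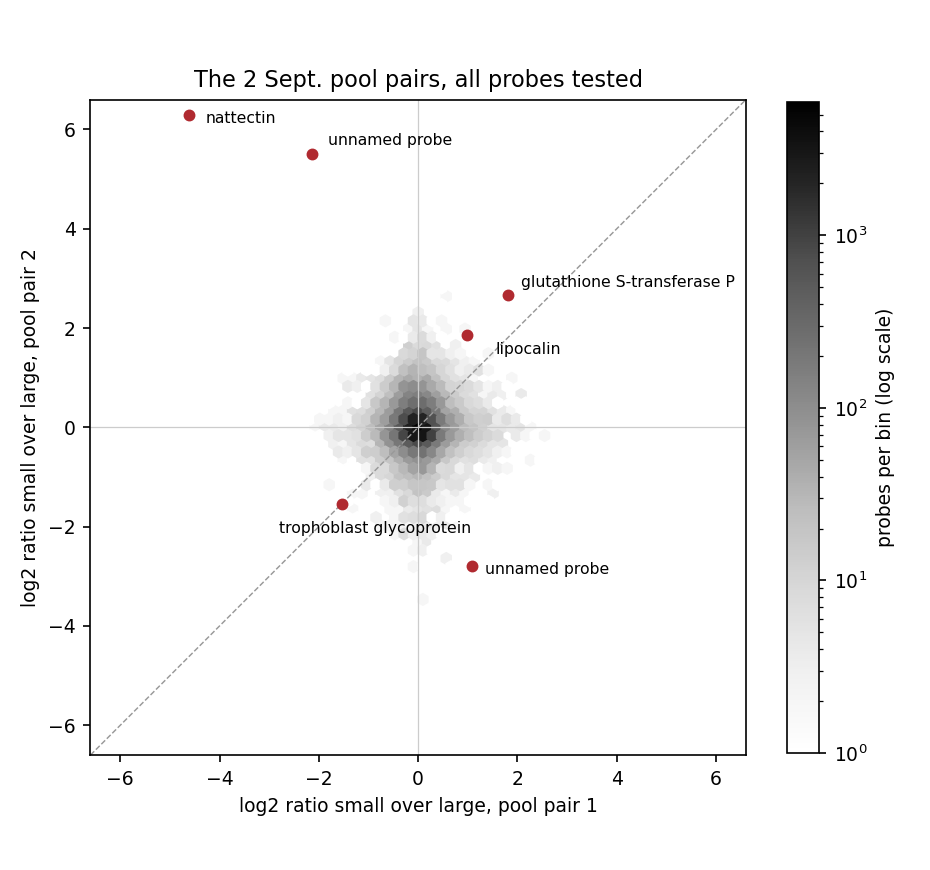
Log2 ratio of small over large Sept. fish in pool pair 1 (x axis) and pool pair 2 (y axis) for the 38679 probes tested, as shaded bins on a log scale of probes per bin, with labelled points in red and the dashed line marking equal values. The cloud shows no slope (r = -0.0005), glutathione S-transferase P and trophoblast glycoprotein lie near the line at its ends, and nattectin lies far off it.

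Very few probes were far from 0 on every array. Only 9 of the probes tested were past 1 in size on all 4 arrays with both arrays of each dye flip on the same side, and in 5 of these the pool pairs also lay on the same side. Those 5 included glutathione S-transferase P above 0 and trophoblast glycoprotein below 0, and the other 3 carry no name. Of these, A_05_P274114 had a mean log2 ratio of 1.74 (SE 0.34), and A_05_P462867 had -1.43 (SE 0.44). The former was higher in small and the latter in large fish on every array, but without a name nothing is known here of what they measure. At a size of 0.5 there were 96 such probes, 70 with the pool pairs alike and 26 with them opposed.

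Glutathione S-transferase P, which joins glutathione to reactive compounds, had the highest ratio of all probes tested. Wherever values of a pool pair are joined by and, the 647 array stands before the 555 array. Its log2 ratios were 1.35 and 2.27 in pool pair 1 and 2.39 and 2.93 in pool pair 2, with a mean of 2.24 (SE 0.48), a fold of 4.71. Every array lay above 1, and pool pair 2 lay higher than pool pair 1. Another probe of the same name was at -0.67 and 0.16 in pool pair 1 and 1.08 and 1.59 in pool pair 2, with a mean of 0.54 (SE 0.40), not past the thresholds. That probe was below 0 on 1 array and above 1 on both arrays of pool pair 2.

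Trophoblast glycoprotein, a membrane protein with leucine-rich repeats first known from placenta, had the lowest ratio of the named probes past the thresholds. Its log2 ratios were -1.36 and -1.72 in pool pair 1 and -1.67 and -1.41 in pool pair 2, with a mean of -1.54 (SE 0.29), or 2.91-fold higher expression in large fish. The 4 arrays of this probe lay within a narrow band well below 0, in both dye orientations. Another trophoblast glycoprotein probe had a mean of -0.06, not past the thresholds. On the side of the small fish, beta-galactosyltransferase 1, a glycan-building enzyme that transfers galactose, had 0.78 and 2.25 in pool pair 1 and 1.31 and 2.07 in pool pair 2 and a mean of 1.60 (SE 0.14). Its pool pairs lay close together, while in each pair the 555 array was higher.

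Several further probes held their values on all 4 arrays. Probes such as these were picked for large ratios and 1 sign on all arrays. Their agreement of sign is therefore no independent evidence of a direction. Defensin beta 3, an antimicrobial peptide, had log2 ratios of 1.12 and 1.01 in pool pair 1 and 0.89 and 1.2 in pool pair 2, with a mean of 1.06 (SE 0.14). Leukotriene A-4 hydrolase, which makes the neutrophil attractant leukotriene B4, had 1.33 and 0.60 in pool pair 1 and 1.01 and 1.17 in pool pair 2 and a mean of 1.03 (SE 0.14). General transcription factor 3C polypeptide 6, a part of the factor that recruits RNA polymerase III, had 1.02 and 1.08 in pool pair 1 and 0.68 and 0.90 in pool pair 2 and a mean of 0.92 (SE 0.15). All 12 array values of these genes lay above 0.5, in either dye orientation. Slow skeletal muscle troponin I, a regulator of the thin filament, had 1.40 and 1.49 in pool pair 1 and 0.84 and 0.85 in pool pair 2, with a mean of 1.15 (SE 0.42), where the arrays of a dye flip nearly coincided and pool pair 1 was higher. Thymosin beta-a, which binds actin monomers, had 0.89 and 1.04 in pool pair 1 and 0.81 and 1.67 in pool pair 2, with a mean of 1.10 (SE 0.28). Rab-10, a GTPase of vesicle transport, had 0.91 and 0.92 in pool pair 1 and 1.60 and 1.21 in pool pair 2, with a mean of 1.16 (SE 0.38). These too were above 0.5 on every array. Toll-like receptor 5 membrane form, a receptor for bacterial flagellin, had 0.76 and 1.06 in pool pair 1 and 0.50 and 1.18 in pool pair 2, with a mean of 0.88 (SE 0.17), and was above 0.5 on all of them as well.

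Other large ratios leaned on a single array or a single pool pair. For TERF1-interacting nuclear factor 2, which helps cap telomeres, the log2 ratios were 0.78 and 1.54 in pool pair 1 and 0.51 and 4.67 in pool pair 2, and 1 array of pool pair 2 carried much of the mean of 1.88. Proteasome activator complex subunit 3 had 0.18 and 0.73 in pool pair 1 and 3.87 and 1.25 in pool pair 2, and the hemagglutinin/amebocyte aggregation factor, named for a clotting and agglutinating protein of invertebrate blood cells, had 0.05 and 1.19 in pool pair 1 and 3.70 and 1.63 in pool pair 2. In both, the 647 array of pool pair 2 gave the extreme value. Another probe for the hemagglutinin factor had a mean of -0.15, not past the thresholds. RNA-binding protein 28 had 0.01 and 1.73 in pool pair 1 and 0.67 and 2.23 in pool pair 2, with a mean of 1.16 (SE 0.18). Its 555 arrays lay far above its 647 arrays. Complement C1q-like protein 4, which belongs to a family of secreted C1q-domain proteins, had -2.20 and -0.58 in pool pair 1 and -2.11 and -1.44 in pool pair 2, all below 0, and its mean of -1.58 (SE 0.91) was not past the thresholds. Its SE comes from a fit that also takes in the Dec. pool pairs, and with the Sept. lot fitted alone it was past them. The other C1q-like protein 4 probe had a mean of -0.17, not past the thresholds.

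**Figure D2:**
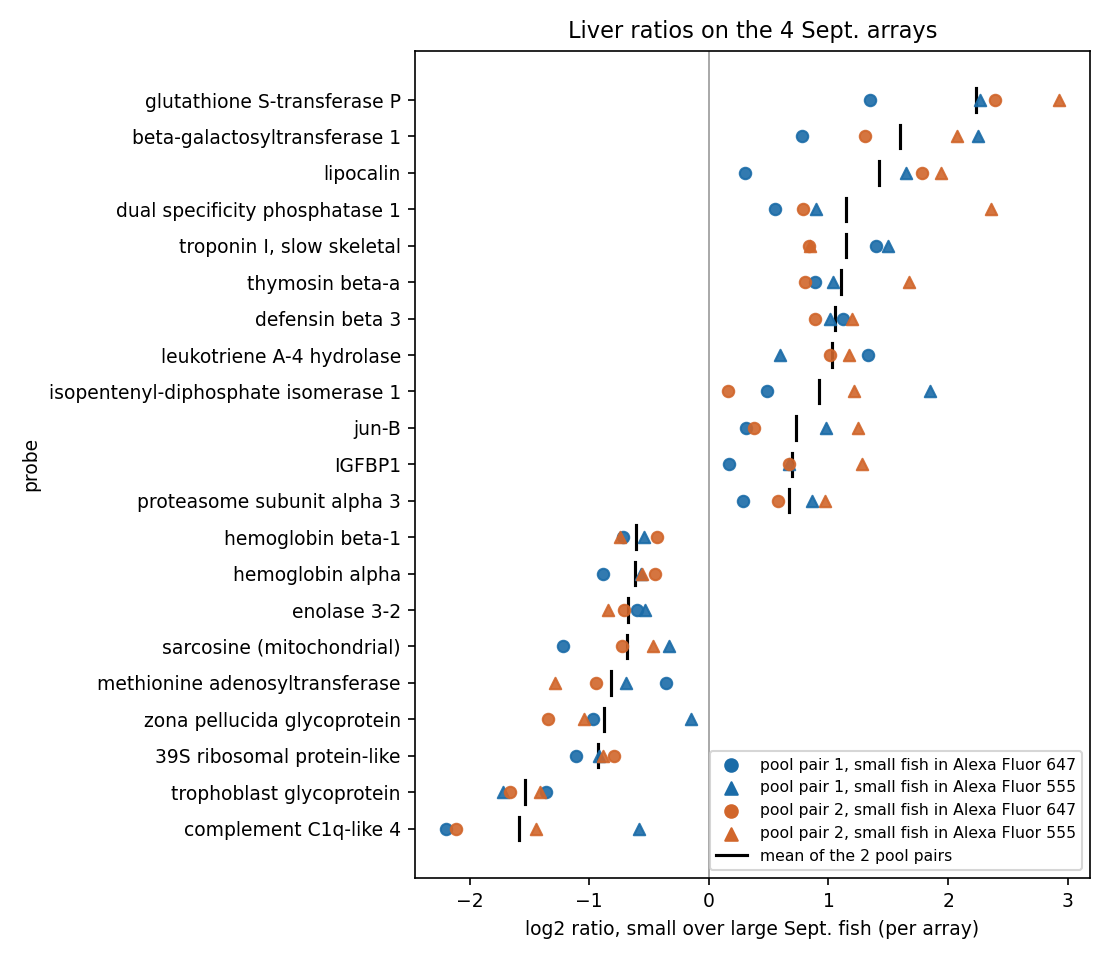
Log2 ratio of small over large Sept. fish on each of the 4 arrays (x axis) for named probes (y axis), colored by pool pair, with circles for small fish in Alexa Fluor 647, triangles for small fish in Alexa Fluor 555 and a bar for the mean of the 2 pool pairs. Trophoblast glycoprotein, with arrays from -1.72 to -1.36, and defensin beta 3, with arrays from 0.89 to 1.2, show tight rows, while lipocalin and isopentenyl-diphosphate delta-isomerase 1 are spread out.

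The 20 gene lists held 468 of the probes tested, of which 72 were past the thresholds. They are described below by role, each with its median log2 ratio, which was 0.00 over all probes and 0.02 over all named probes. Of the 272 tested probes named only by the study's Sept. liver lists, 116 were past the thresholds, or 42.6%, with a median of 0.37. Because of these, 154 of 1461 named probes were past the thresholds, or 10.5%, against 2.72% of all probes. For members named outside the Sept. liver lists the share is the 3.20% given above. The background of a list lies between 42.6% and 3.20%, set by its mix of both kinds of name.

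Of 6 probes of the growth axis, all named outside the Sept. liver lists, a single one was past the thresholds. IGFBP1, a liver protein that binds insulin-like growth factors in blood, had log2 ratios of 0.17 and 0.67 in pool pair 1 and 0.67 and 1.28 in pool pair 2, with a mean of 0.70 (SE 0.18). All 4 arrays lay above 0, and in each pool pair the 555 array was higher. The other IGFBP1 probe had 0.06 and 0.55 in pool pair 1 and -0.01 and 0.43 in pool pair 2, with a mean of 0.26 (SE 0.17), not past the thresholds. The growth hormone receptor ghr1, which carries the hormone's signal into the cell, had -0.48 and 1.27 in pool pair 1 and -0.76 and -0.64 in pool pair 2, with a mean of -0.15 (SE 0.31) and a pool pair 1 whose arrays opposed each other. The insulin-like growth factor I receptor lay close to 0 on all arrays, at 0.05, -0.03, -0.03 and -0.10. Igfbp6 and igfbprp1, which also bind insulin-like growth factors, had 0.17 and -0.06.

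Of 13 probes for enzymes of cholesterol and isoprenoid synthesis, 3 were higher in small fish past the thresholds, none was higher in large fish, and 12 lay above 0, with a median of 0.38. The median was 0.61 in pool pair 1 and 0.24 in pool pair 2. The 5 members named outside the Sept. liver lists had a median of 0.22, with 0 past the thresholds. The 3 probes past them were named only by those lists, where 42.6% of the probes tested were past. Isopentenyl-diphosphate delta-isomerase 1, which makes the isoprene unit dimethylallyl diphosphate, had 0.48 and 1.84 in pool pair 1 and 0.16 and 1.21 in pool pair 2, with a mean of 0.92 (SE 0.28). Both probes for lathosterol oxidase, which sets a double bond late in the pathway, were past the thresholds, with 0.22 and 0.84 in pool pair 1 and 0.26 and 1.23 in pool pair 2 on the probe with a mean of 0.64 (SE 0.13) and 0.16 and 1.29 in pool pair 1 and 0.28 and 1.00 in pool pair 2 on the probe with a mean of 0.68 (SE 0.22). On all 3 probes every array was above 0, and the 555 arrays were the higher ones in both pool pairs. Squalene monooxygenase, a rate-limiting step, had 0.36 and 0.13 on 2 probes, and farnesyl pyrophosphate synthetase had 0.36. The 4 probes for 7-dehydrocholesterol reductase, the last step, ranged from -0.02 to 0.68, and none of these was past the thresholds.

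Of 10 probes for enzymes of methionine and one-carbon metabolism, 3 were higher in large fish past the thresholds and 9 were below 0. The median was -0.27, at -0.46 in pool pair 1 and -0.18 in pool pair 2. Of the 5 members named outside the Sept. liver lists 0 were past the thresholds, with a median of -0.19. The 3 past them were named only by those lists, where 42.6% of the probes tested were past. Methionine adenosyltransferase alpha, which makes the methyl donor S-adenosylmethionine, had -0.36 and -0.70 in pool pair 1 and -0.94 and -1.29 in pool pair 2, with a mean of -0.82 (SE 0.26). A probe named sarcosine mitochondrial, a name cut short in the lists, had -1.22 and -0.34 in pool pair 1 and -0.72 and -0.47 in pool pair 2, with a mean of -0.69 (SE 0.13). S-adenosylhomocysteine hydrolase, which clears the product of methylation, had -0.79 and -0.15 in pool pair 1 and -0.59 and -0.18 in pool pair 2, with a mean of -0.43 (SE 0.16). These 12 array values were all below 0, but the latter pair was closer to 0 on the 555 arrays. Betaine-homocysteine S-methyltransferase 1, which remakes methionine, had -1.04 and -0.41 in pool pair 1 and -0.90 and -0.77 in pool pair 2, all below 0. Its mean of -0.78 (SE 0.72) was not past the thresholds. That SE comes from a fit that also takes in the Dec. pool pairs, and the Sept. pool pairs of this probe lay close together. Against the rest, S-adenosylmethionine synthase isoform type-2 had 0.35, above 0 on all arrays. The other sarcosine mitochondrial probe was at -0.01.

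Formiminotransferase cyclodeaminase, a folate enzyme of histidine breakdown that belonged to no list, had -2.07 and 0.42 in pool pair 1 and -0.92 and -0.63 in pool pair 2, with a mean of -0.80 (SE 0.17), past the thresholds. It was below 0 on all but the 555 array of pool pair 1. Another probe of that name had a mean of -0.007, not past the thresholds. A probe named hydroxymethylglutaryl- mitochondrial-like, another name cut short, had -0.76 and -1.11 in pool pair 1 and -0.65 and -1.05 in pool pair 2 and a mean of -0.89 (SE 0.21), below -0.5 on every array.

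Among 13 probes for glutamine, glutamate, ornithine and branched-chain amino acid enzymes, only ornithine aminotransferase, which breaks down ornithine in mitochondria, was past the thresholds. Its ratios were -0.15 and 1.13 in pool pair 1 and 0.74 and 1.44 in pool pair 2, with a mean of 0.79 (SE 0.21), so that 1 array was below 0. The list median was -0.07, and 0 of the 11 members named outside the Sept. liver lists were past the thresholds. Glutamine synthetase, which fixes ammonia, was on 4 probes with 0.37, 0.13, -0.02 and -0.07. The glutamate dehydrogenase probes, which release or fix ammonia on the glutamate side, ranged from -0.32 to -0.07. The probe with the cut short name branched-chain-amino-acid cytosolic had -1.05 and -0.97 in pool pair 1 and -0.39 and -0.45 in pool pair 2, all below 0, with a mean of -0.71 (SE 0.41), not past the thresholds.

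Genes of fatty acids, triglycerides and lipoproteins were found in both directions, with 4 of 29 probes higher in small and 2 higher in large fish past the thresholds and a median of -0.02. Among the 21 members named outside the Sept. liver lists 1 was past the thresholds. Elongation of very long chain fatty acids protein 1, which lengthens saturated acyl chains, had 0.03 and 1.22 in pool pair 1 and 0.14 and 1.03 in pool pair 2, with a mean of 0.60 (SE 0.12), and a probe with the same name and the suffix like had 0.18 and 0.93 in pool pair 1 and 0.49 and 0.69 in pool pair 2, with a mean of 0.57 (SE 0.16). All arrays of both were above 0, and the 555 arrays were higher. Angiopoietin-related protein 4, an inhibitor of lipoprotein lipase, had -0.04 and 0.59 in pool pair 1 and 0.38 and 0.74 in pool pair 2, with a mean of 0.42 (SE 0.14). Its 647 array of pool pair 1 lay just below 0. Lipocalin, of a family of secreted carriers of lipophilic molecules, had 0.31 and 1.65 in pool pair 1 and 1.78 and 1.94 in pool pair 2, above 0 on all arrays and far apart in pool pair 1. On the side of the large fish, a probe named phytanoyl- hydroxylase-interacting had -0.48 and -0.68 in pool pair 1 and -0.95 and -1.88 in pool pair 2, with a mean of -0.998 (SE 0.26). The probe for a very long-chain specific acyl- mitochondrial protein, again a cut name, had -0.60 and -0.03 in pool pair 1 and -0.65 and -0.68 in pool pair 2, with a mean of -0.49 (SE 0.15). Both were below 0 on all arrays. Diacylglycerol O-acyltransferase 2, which makes triglycerides, had -0.62, and liver-type fatty acid-binding protein had 0.52 and 0.38, none past the thresholds. Fadsd6, a fatty acyl desaturase symbol outside the list, was past them at 0.41 (SE 0.12). Another probe, which the study names delta-6 fatty acyl desaturase, had 0.43 (SE 0.20) and was not past them.

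The sugar enzymes differed little. Of 22 probes 2 were past the thresholds, and the median was 0.02. The 19 members named outside the Sept. liver lists had 0 past them. Enolase 3-2, an enzyme of glycolysis, had -0.60 and -0.53 in pool pair 1 and -0.71 and -0.85 in pool pair 2, with a mean of -0.67 (SE 0.17). Every array was below -0.5, while other probes of that name lay at 0.20 and 0.48. The bifunctional 6-phosphofructo-2-kinase fructose-biphosphatase 2, which sets the level of the glycolytic activator fructose 2,6-bisphosphate, had 0.51 and 0.38 in pool pair 1 and 0.65 and 0.22 in pool pair 2, with a mean of 0.44 (SE 0.15), and all arrays were above 0. Pck2, the mitochondrial phosphoenolpyruvate carboxykinase of gluconeogenesis, had -0.20 and -0.18 on 2 probes. Pyruvate kinase, the last step of glycolysis, had -0.40 and -0.01. Protein phosphatase 1 regulatory subunit 3D, which guides a phosphatase to glycogen and belonged to no list, had 0.51 and 0.58 in pool pair 1 and 0.49 and 0.42 in pool pair 2, with a mean of 0.50 (SE 0.14), past the thresholds and above 0 on all arrays.

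In the list of respiratory chain, citric acid cycle and mitochondrial carrier genes 4 of 27 probes were higher in small fish past the thresholds and 0 in large fish, with a median of 0.09. Isocitrate dehydrogenase, of the citric acid cycle, had 0.29 and 1.61 in pool pair 1 and 0.10 and 0.50 in pool pair 2, with a mean of 0.63 (SE 0.20). CDGSH iron sulfur domain 1, a protein of the outer mitochondrial membrane, had 0.49 and 0.35 in pool pair 1 and 0.19 and 1.09 in pool pair 2, with a mean of 0.53 (SE 0.18). Both were above 0 throughout, each with 1 array above 1. Voltage-dependent anion-selective channel protein 2, a pore of that membrane, had 0.04 and 1.39 in pool pair 1 and -0.04 and 0.58 in pool pair 2, with a mean of 0.49 (SE 0.17). NADH dehydrogenase subunit 4L, encoded in the mitochondrial genome, had -0.12 and 0.73 in pool pair 1 and 0.29 and 0.73 in pool pair 2, with a mean of 0.41 (SE 0.15). The 647 arrays of the anion channel lay near 0, and 1 value of subunit 4L was below 0. Of 3 probes named for the anion channel only this 1 was past the thresholds, and the lowest was at 0.02. Of the 21 members named outside the Sept. liver lists 1 was past the thresholds, the anion channel.

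Early response and growth arrest regulators had the highest of the list medians over all members, 0.39, which was 0.22 in pool pair 1 and 0.44 in pool pair 2. This rank leans on members named only by the Sept. liver lists. Such probes had a median of 0.37, with 42.6% past the thresholds. Over members named outside those lists the cholesterol enzymes had a higher median, 0.22. Of 28 probes 6 were higher in small fish past the thresholds, 1 in large fish, and 24 were above 0. Among the 17 members named outside the Sept. liver lists 2 were past the thresholds, both higher in small fish, with a median of 0.13. Dual specificity phosphatase 1, an enzyme that inactivates MAP kinases, had 0.55 and 0.90 in pool pair 1 and 0.78 and 2.36 in pool pair 2, with a mean of 1.15 (SE 0.26). Jun-B, a subunit of the transcription factor AP-1, had 0.31 and 0.98 in pool pair 1 and 0.37 and 1.25 in pool pair 2, with a mean of 0.73 (SE 0.13). Both of these were named outside those lists and were above 0 on all arrays. Another jun-B probe had 0.28 and 0.32 in pool pair 1 and 0.62 and 0.52 in pool pair 2, also above 0 throughout, but its mean of 0.44 (SE 0.21) was not past the thresholds. Gadd45 beta, a stress sensor of the growth arrest and DNA damage family, had 0.08 and 0.62 in pool pair 1 and 0.58 and 1.25 in pool pair 2, with a mean of 0.63 (SE 0.18). The kinase pim-1, a target of cytokine signaling, had 0.12 and 0.60 in pool pair 1 and 0.76 and 0.48 in pool pair 2, with a mean of 0.49 (SE 0.15), and id-2, which blocks basic helix-loop-helix factors, had 0.18 and 0.80 in pool pair 1 and 0.47 and 0.49 in pool pair 2, with a mean of 0.48 (SE 0.14). All 3 were above 0 on every array.

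Cold inducible RNA binding protein, whose level rises in cooled cells, had 1.90 and 0.86 in pool pair 1 and 0.13 and 0.32 in pool pair 2, and pool pair 1 held most of its mean of 0.80 (SE 0.30). The exception in direction was class E basic helix-loop-helix protein 40, a transcriptional repressor tied to the circadian clock, with -0.81 and -0.32 in pool pair 1 and -0.39 and -0.90 in pool pair 2 and a mean of -0.61 (SE 0.16), below 0 on all arrays. Signal transducer and activator of transcription 3 and NF-kappa-B inhibitor alpha, which act in cytokine signaling, had 0.40 and 0.39, and CCAAT enhancer-binding proteins beta and delta had 0.31 and 0.42, none past the thresholds.

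Beyond glutathione S-transferase P, the list of 21 glutathione, thioredoxin and peroxide probes had 1 member past the thresholds and a median of 0.04. Over the whole list, 18 members were named outside the Sept. liver lists, and 1 of these was past the thresholds. Thioredoxin, which reduces protein disulfides, had -0.22 and 1.51 in pool pair 1 and 2.34 and 3.06 in pool pair 2, with a mean of 1.67 (SE 0.61). Its first array was below 0 and both arrays of pool pair 2 were above 2. Glutathione peroxidase 3, a plasma enzyme that removes peroxides, had 0.36 and 1.74 in pool pair 1 and 0.40 and 1.31 in pool pair 2, all above 0, and a mean of 0.95 (SE 0.63) that was not past the thresholds. Another probe of that name had a mean of -0.13. Copper chaperone for superoxide dismutase, which loads copper into that enzyme, had -0.47 and -0.26 in pool pair 1 and -0.87 and -1.37 in pool pair 2, all below 0, with a mean of -0.74 (SE 0.29), not past them either. Among 12 probes for xenobiotic oxidation and transport the single one past the thresholds was multidrug and toxin extrusion protein 1-like, an exporter of organic cations, with -0.79 and -0.35 in pool pair 1 and -0.18 and -0.34 in pool pair 2 and a mean of -0.41 (SE 0.14). The cyp1a probes, for the best known oxidase of planar foreign compounds, had -0.39 and -0.35, not past the thresholds. Of the 8 xenobiotic members named outside the Sept. liver lists 0 were past them.

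Of 55 tested immune probes 9 were higher in small fish and 2 in large fish past the thresholds. All of these names came from the Sept. liver lists, and of the 38 members named elsewhere 0 were past the thresholds, with a median of 0.00. Besides defensin beta 3, leukotriene A-4 hydrolase, toll-like receptor 5 and the hemagglutinin factor, the small fish were higher for 5 probes. LYVE1, a hyaluronan receptor of lymphatic and liver sinusoidal endothelium, had 1.70 and 0.11 in pool pair 1 and 1.40 and 0.28 in pool pair 2, with a mean of 0.87 (SE 0.12). Its 647 arrays were high and its 555 arrays near 0, the reverse of the order seen in the cholesterol enzymes. Deleted in malignant brain tumors 1, a secreted protein that binds bacteria, had 1.11 and 0.72 in pool pair 1 and 0.66 and 0.30 in pool pair 2 and a mean of 0.70 (SE 0.18). Gamma-interferon-inducible lysosomal thiol reductase, which unfolds antigens in lysosomes, had -0.01 and 0.98 in pool pair 1 and 0.55 and 0.75 in pool pair 2 and a mean of 0.57 (SE 0.13). NLRC3, of the NOD-like receptors, had 0.49 and 0.46 in pool pair 1 and 0.38 and 0.78 in pool pair 2 with a mean of 0.53 (SE 0.18), and CD22, an inhibitory receptor of B cells, had 0.37 and 0.61 in pool pair 1 and 0.19 and 0.67 in pool pair 2 with a mean of 0.46 (SE 0.16). All but 1 array value of these 5 were above 0.

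The large fish were higher for Bruton agammaglobulinemia tyrosine kinase, a signaling kinase of B cells, at -0.68 and -0.51 in pool pair 1 and -0.60 and -0.36 in pool pair 2, with a mean of -0.54 (SE 0.18). They were also higher for toll-interacting protein, an adaptor that dampens toll-like receptor signals, at -0.75 and -0.25 in pool pair 1 and -0.56 and -0.54 in pool pair 2, with a mean of -0.52 (SE 0.13). Both of these probes were below 0 on every array. The other probe for the Bruton kinase had a mean of 0.11, not past the thresholds. The leukocyte markers were too few to read, since 3 were tested and 1, CD22, was past the thresholds.

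Probes for hemoglobin, which carries oxygen in red blood cells, lay mostly on the side of the large fish. Of 12 hemoglobin probes 6 were higher in large fish past the thresholds, 0 in small fish, and 10 lay below 0, with a median of -0.43. Of the 11 named outside the Sept. liver lists 6 were past the thresholds. Among these are alpha probes A_05_P249524, A_05_P449312 and A_05_P491417 and beta-1 probes A_05_P453042 and A_05_P365862. The study's muscle lists hold all of the latter as higher in large Sept. fish. Their names and direction are therefore not independent of these same fish. Probe A_05_P249524, for the alpha subunit, had -0.88 and -0.56 in pool pair 1 and -0.45 and -0.56 in pool pair 2, with a mean of -0.62 (SE 0.14), and the beta-1 probe A_05_P453042 had -0.72 and -0.55 in pool pair 1 and -0.43 and -0.74 in pool pair 2, with a mean of -0.61 (SE 0.14). These 8 array values were all below -0.4. Of the other alpha probes past the thresholds, A_05_P449312 had -0.89 and -0.50 in pool pair 1 and -0.32 and -0.45 in pool pair 2 and A_05_P491417 had -0.61 and -0.57 in pool pair 1 and -0.09 and -0.80 in pool pair 2, all below 0. Alpha probe A_05_P480657 had -0.31 and -0.89 in pool pair 1 and 0.03 and -0.62 in pool pair 2 and beta-1 probe A_05_P365862 had -0.39 and -0.83 in pool pair 1 and 0.00 and -0.47 in pool pair 2. In both of the latter, the 647 array of pool pair 2 was at 0.03 or less above 0 and the other arrays were below 0. The alpha probe A_05_P441202 had -0.54 and -0.30 in pool pair 1 and -0.94 and -0.66 in pool pair 2, all below 0, but its mean of -0.61 (SE 0.38) was not past the thresholds. The probes that differed least were hba A_05_P332705 at 0.03 and 2 beta probes at 0.01 and -0.06. In a bulk extract, fewer red blood cells and less globin RNA in each of them cannot be told apart.

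The other red blood cell genes were more mixed. Over the whole marker list for these cells 7 of 15 probes were higher in large fish past the thresholds and 12 below 0, with a median of -0.42 and pool pair medians of -0.54 and -0.30. That list includes the 12 hemoglobin probes above, which hold 6 of those past the thresholds and 10 of those below 0. The part of blood in the ratios of other genes was not tested. A probe named 5-aminolevulinate mitochondrial precursor, a cut short name that matches the first step of heme synthesis, had -0.94 and -0.22 in pool pair 1 and -0.35 and -0.64 in pool pair 2, with a mean of -0.54 (SE 0.14), below 0 throughout. The other probe of that kind was at 0.15. Band 3, which exchanges anions across the membrane of these cells, had -0.21. The 3 probes for heme oxygenase, which breaks heme down, had 0.68, 0.57 and 0.12, on the opposite side and not past the thresholds. Averaging the probes that share a name moved the median of the whole list of hemoglobin, heme and red blood cell genes from -0.29 to -0.19, since several of its probes repeat the alpha and beta subunits.

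Plasma proteins, which are made by hepatocytes, lay near 0. Of 36 probes 1 was past the thresholds, inter-alpha-trypsin inhibitor heavy chain H3-like, a serum protein that binds hyaluronan, with -1.08 and 0.30 in pool pair 1 and -1.01 and -0.50 in pool pair 2 and a mean of -0.57 (SE 0.15). A single array, in pool pair 1, was above 0. All plasma protein members were named outside the Sept. liver lists, and the list median was -0.03. Serum albumin had 0.29 and 0.05, apolipoprotein A-I of high density lipoproteins -0.20, and the fibrinogen probes, for the protein of clots, ranged from -0.15 to 0.04. The hepatocyte markers albumin, apolipoprotein A-I, fibrinogen and transferrin were on 11 probes, with 0 past the thresholds and a median of -0.07.

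Zona pellucida glycoprotein, an egg envelope protein that female salmonids make in the liver under estrogen, had -0.97 and -0.15 in pool pair 1 and -1.34 and -1.04 in pool pair 2, with a mean of -0.88 (SE 0.19), past the thresholds and below 0 on all arrays. A probe outside the egg list, A_05_P249234, which carries only the placeholder symbol LOC100136930, had -1.47 and -1.87 in pool pair 1 and -0.65 and -0.16 in pool pair 2, with a mean of -1.04 (SE 0.35). Its name does not tell what it measures. It too was below 0 on all arrays, with pool pair 1 lower than pool pair 2. Zona pellucida sperm-binding protein 3 had -0.19, and esr1, the estrogen receptor, had -0.08 and 0.01 on 2 probes, none past the thresholds. Zona pellucida glycoprotein was the only one of the 4 probes of the egg list past them, and all 4 were named outside the Sept. liver lists. By the study's genotyping both size classes of the arrayed fish held males and females, and the share of females was similar in small and large fish. How they were split between the pool pairs is not given in the sources used here.

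**Figure D3:**
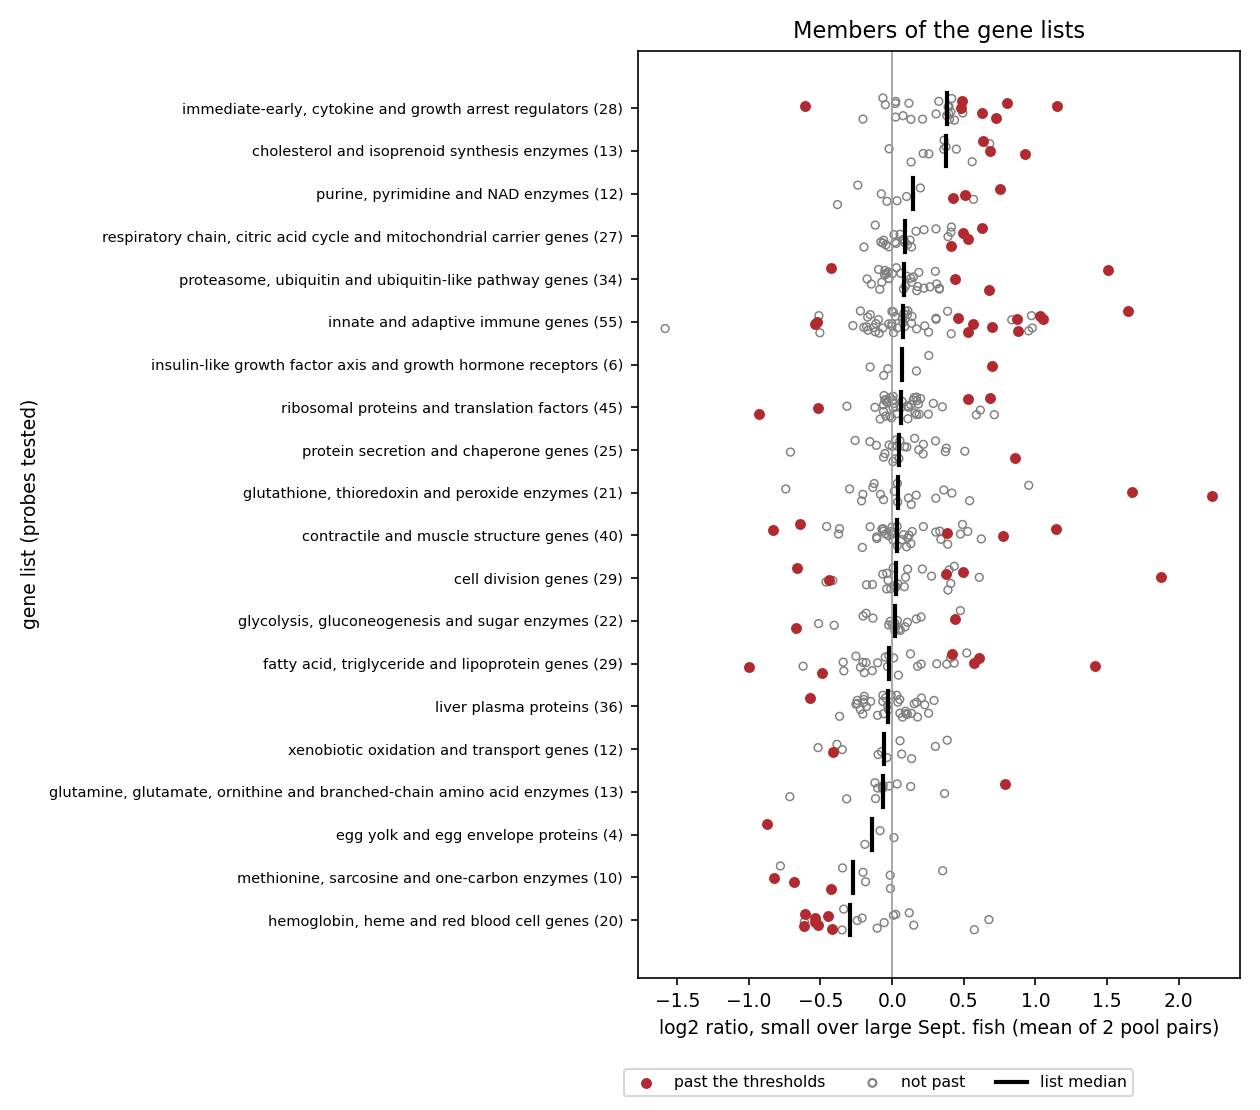
Log2 ratio of small over large Sept. fish (x axis, mean of the 2 pool pairs) for every tested member of the 20 gene lists (y axis, probes tested in parentheses), filled red past the thresholds and open otherwise, with a bar at the list median and random vertical scatter. The medians, over all members however named, run from -0.29 for the hemoglobin, heme and red blood cell genes to 0.39 for the early regulators.

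In the proteasome and ubiquitin list 3 of 34 probes were higher in small and 1 in large fish past the thresholds, with a median of 0.09. None of the 28 members named outside the Sept. liver lists was past them. Proteasome subunit alpha type-3, part of the core that degrades tagged proteins, had 0.28 and 0.86 in pool pair 1 and 0.58 and 0.97 in pool pair 2, with a mean of 0.67 (SE 0.14). The probe named proteasome ( macropain) 26s 6 had 0.24 and 0.14 in pool pair 1 and 0.47 and 0.90 in pool pair 2, with a mean of 0.44 (SE 0.17). Both were above 0 on all arrays. Another probe of the macropain name had a mean of 0.17, not past the thresholds. Ubiquitin-conjugating enzyme E2 variant 1, which helps build ubiquitin chains for signaling, had -0.39 and -0.44 in pool pair 1 and -0.28 and -0.59 in pool pair 2, with a mean of -0.42 (SE 0.15), and was below 0 on all of them. The 15 proteasome subunits alone had a median of 0.17, at 0.03 in pool pair 1 and 0.32 in pool pair 2.

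The 45 probes for ribosomal proteins and translation factors had a median of 0.06, with 2 higher in small and 2 in large fish past the thresholds. Of the 41 named outside the Sept. liver lists 1 was past them. The 20 probes for proteins of the cytosolic ribosome had 0 past the thresholds, and their median of 0.12 was -0.01 in pool pair 1 and 0.25 in pool pair 2. Eukaryotic translation initiation factor 5B, which joins the ribosomal subunits, had 0.23 and 1.10 in pool pair 1 and 0.08 and 0.72 in pool pair 2, with a mean of 0.53 (SE 0.17). A probe named translation initiation factor if- mitochondrial-like had -0.42 and -0.11 in pool pair 1 and -0.83 and -0.71 in pool pair 2, with a mean of -0.52 (SE 0.17). The former was above and the latter below 0 on all arrays. Sec61 subunit gamma, part of the channel into the endoplasmic reticulum, had -0.17 and 0.82 in pool pair 1 and 1.11 and 1.68 in pool pair 2, with a mean of 0.86 (SE 0.29) and 1 array below 0. It was the only one of 25 secretion and chaperone probes past the thresholds. Of these probes 22, sec61 gamma included, were named outside the Sept. liver lists. The 5 probes for the chaperone HSP90 had a median of 0.19, at -0.06 in pool pair 1 and 0.40 in pool pair 2.

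Cell division genes had a median of 0.03, with 3 of 29 higher in small and 2 in large fish past the thresholds. Of the 18 named outside the Sept. liver lists 1 was past them, higher in large fish. A homolog of the mitotic kinase cell division control protein 2 had -0.68 and -0.50 in pool pair 1 and -0.37 and -0.23 in pool pair 2, with a mean of -0.44 (SE 0.14). Septin-7, a filament protein of dividing cells, had -0.75 and -0.54 in pool pair 1 and -0.49 and -0.87 in pool pair 2, with a mean of -0.66 (SE 0.21). Both were below 0 on all arrays. Cyclin-dependent kinase 7, which activates other cell cycle kinases and acts in transcription, had 0.17 and 0.77 in pool pair 1 and 0.30 and 0.74 in pool pair 2, with a mean of 0.50 (SE 0.12). Kinesin-like protein kif2a, which shortens microtubules, had 0.08 and 0.44 in pool pair 1 and 0.44 and 0.55 in pool pair 2, with a mean of 0.38 (SE 0.14). These were above 0 on all arrays.

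Purine, pyrimidine and NAD enzymes had 3 of 12 probes higher in small fish past the thresholds and 0 in large fish, with a median of 0.15. All 3 act on pyrimidines and were named only by the Sept. liver lists. Uridine phosphorylase 2, which splits uridine, had -0.04 and 1.45 in pool pair 1 and 0.34 and 1.27 in pool pair 2, with a mean of 0.76 (SE 0.16). Dihydroorotate dehydrogenase, of pyrimidine synthesis, had 0.42 and 0.72 in pool pair 1 and 0.13 and 0.42 in pool pair 2, with a mean of 0.42 (SE 0.15), and the uracil phosphoribosyltransferase homolog had 0.30 and 0.27 in pool pair 1 and 0.30 and 1.17 in pool pair 2, with a mean of 0.51 (SE 0.17). A single value among the 12, of uridine phosphorylase 2, was below 0. Uridine-cytidine kinase 1, which salvages pyrimidine nucleosides and belonged to no list, was past the thresholds at 0.34 (SE 0.12).

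Contractile and muscle structure genes, which also mark tissue other than liver, had a median of 0.04, with 3 of 40 higher in small and 2 in large fish past the thresholds. The 32 members named outside the Sept. liver lists had 1 past them, higher in small fish. Slow troponin I was given above. Fast myotomal muscle troponin-t-1, of the same complex in fast fibres, had -1.51 and -0.17 in pool pair 1 and -0.60 and -1.06 in pool pair 2, with a mean of -0.83 (SE 0.12), all below 0. Myozenin-2, of the muscle Z-disc, had -0.60 and -1.02 in pool pair 1 and -0.21 and -0.74 in pool pair 2, with a mean of -0.64 (SE 0.14), also below 0 throughout. The other myozenin-2 probe lay on the opposite side at 0.13, not past the thresholds. The smooth muscle isoform of myosin regulatory light chain 2 had 0.10 and 0.73 in pool pair 1 and 0.84 and 1.44 in pool pair 2, with a mean of 0.78 (SE 0.23), and telethonin, of the Z-disc, had 0.33 and 0.28 in pool pair 1 and 0.41 and 0.50 in pool pair 2, with a mean of 0.38 (SE 0.13). These last were above 0 on all arrays, and the other telethonin probe was at 0.12, not past the thresholds. The 19 skeletal muscle markers had a median of 0.00, with 2 past the thresholds in opposite directions, and creatine kinase, the energy buffer of muscle, was at -0.37 (SE 1.07).

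Several list medians followed the dye orientation. Of the 20 lists, 19 had a higher median on the 555 arrays than on the 647 arrays, cell division genes being the exception, and 9 had medians on both sides of 0. Over all probes the median was 0.02 on the 647 arrays and -0.02 on the 555 arrays, and over the named probes 0.01 and 0.06. The one-carbon enzymes had -0.63 on the 647 arrays and -0.06 on the 555 arrays. The plasma proteins lay at -0.18 and 0.16, and the cholesterol enzymes at 0.21 and 0.57. Hemoglobin, at -0.34 and -0.52, was below 0 in both. The means over the arrays of each orientation correlated at r = -0.137 across probes. Averaging the dye flip gives both orientations equal weight in every value above.

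**Figure D4:**
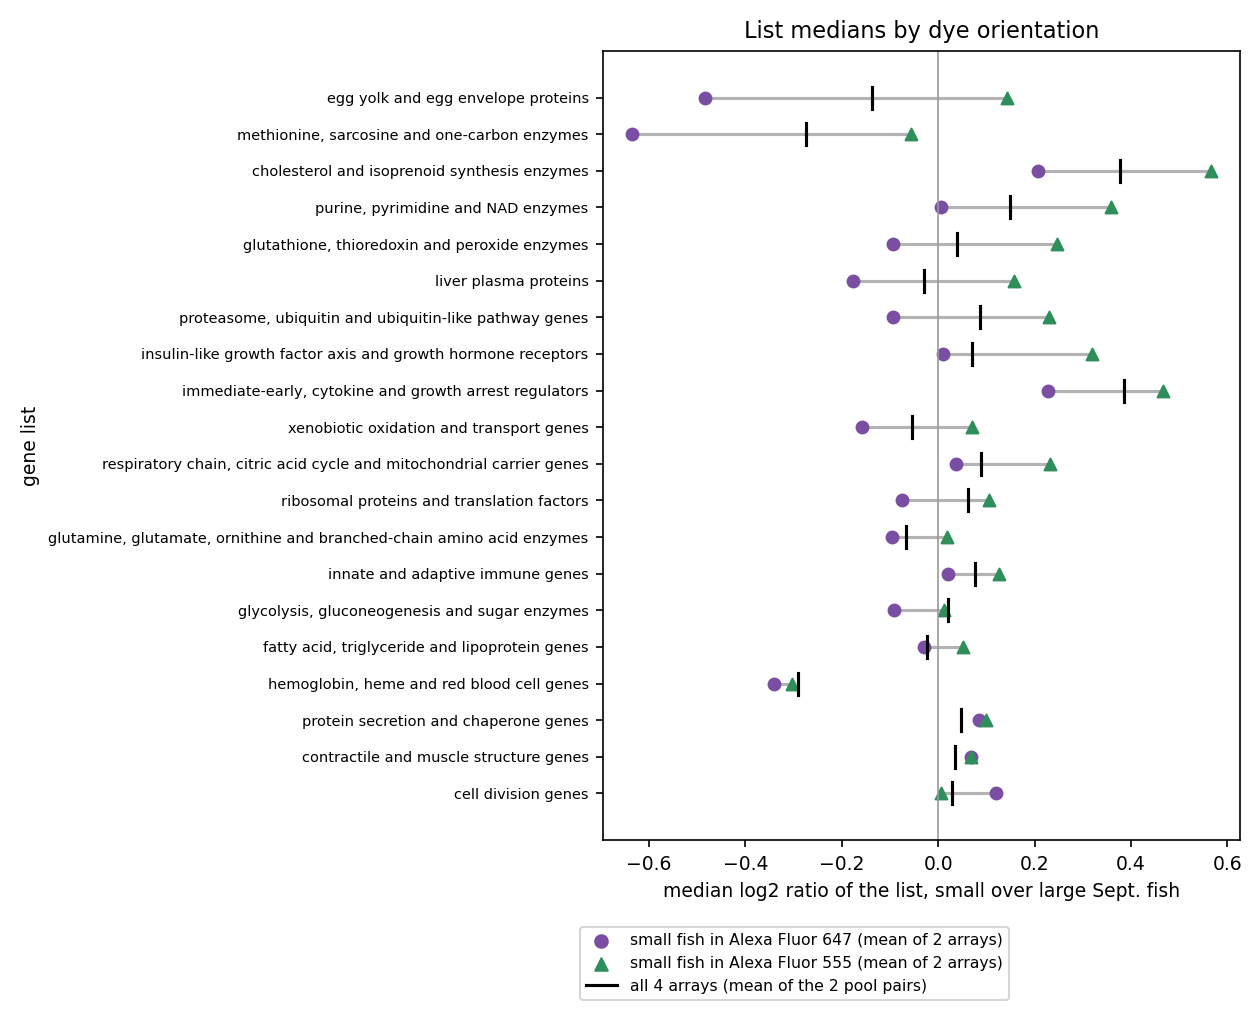
Median log2 ratio of small over large Sept. fish (x axis) of each of the 20 gene lists (y axis), over the 647 arrays (circles), the 555 arrays (triangles) and all 4 (bars). Triangles lie to the right of circles in 19 lists, and 9 lists span 0.

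For some probes the dye flips agreed and the pool pairs opposed each other. Nattectin, whose name is that of a C-type lectin in the venom of a toadfish, had -4.84 and -4.41 in pool pair 1 and 6.39 and 6.19 in pool pair 2, so that large fish were far higher in pool pair 1 and small fish far higher in pool pair 2. It was the only probe past 2 in size on all 4 arrays with its dye flips alike, and its mean of 0.83 (SE 2.54) describes neither pair. An unnamed probe, A_05_P364612, had -1.33 and -2.95 in pool pair 1 and 4.22 and 6.81 in pool pair 2, in the same order, and another, A_05_P354852, had 1.09 and 1.09 in pool pair 1 and -2.53 and -3.05 in pool pair 2, in the opposite order. Within each pool pair both dyes gave these ratios 1 sign.

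Genes measured by several probes rarely agreed on a call. Of 138 names with 2 or more probes tested, 31 had a probe past the thresholds, and in 20 of these all probes had 1 sign. All probes were past the thresholds in 1 direction for 2 names, hemoglobin subunit beta-1 and lathosterol oxidase-like. Both lathosterol probes are named only by the Sept. liver lists, which were called on these same arrays. The study's muscle lists hold both beta-1 probes as higher in large Sept. fish. Neither agreement is therefore independent evidence. The name 39S ribosomal protein mitochondrial-like, for the large subunit of the mitochondrial ribosome, was past them in both directions, with -1.11 and -0.92 in pool pair 1 and -0.79 and -0.89 in pool pair 2 on the probe with a mean of -0.93 (SE 0.28) and 0.29 and 0.50 in pool pair 1 and 1.13 and 0.80 in pool pair 2 on the probe with a mean of 0.68 (SE 0.25). All 4 arrays were below 0 on the former and above 0 on the latter, and the shortened name can cover different proteins. LYVE1 had 2 other probes, both within 0.01 of 0. Salmonid genomes carry many duplicated genes, and a probe can bind several copies.

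The Dec. lot, fish of the same strain and crossing scheme spawned in December from another sire and hybridized in the same way, was set beside the Sept. lot for a few groups. In Dec. 1647 of 34014 probes were past the thresholds (4.84%), with 711 (2.09%) higher in small and 936 (2.75%) in large fish. The difference between the lots was tested on 33291 probes with values on all 8 arrays, and 917 of them (2.75%) had an unadjusted p within 0.05 and 0 an adjusted p under 0.05 in limma, the smallest being 1.00. On the 12 hemoglobin probes the median was -0.43 in Sept. and 0.71 in Dec., where 9 were higher in small fish past the thresholds. Cholesterol enzymes had medians above 0 in both lots, at 0.38 and 0.67, with 3 and 6 of 13 probes past the thresholds. Only 5 of the 13 are named outside the Sept. liver lists. Among all 1401 named probes with values in both lots, 108 were higher in small and 56 in large fish past the thresholds in Dec. Probes named through the Dec. liver list were called on the Dec. arrays and are no independent evidence of a Dec. direction. Their number among the cholesterol and hemoglobin probes was not counted. Early regulators had 0.35 in Sept. and 0.05 in Dec. over the members with values in both. Of the 28 members 17 are named outside the Sept. liver lists, with a Sept. median of 0.13. Probes named only by those lists had medians of 0.38 in Sept. and -0.09 in Dec. over those with values in both. A higher Sept. median of the early regulators is therefore no independent evidence of a difference between the lots. Jun-B, at 0.73 (SE 0.13) in Sept., was at -0.20 (SE 0.13) in Dec., a difference of 0.92 (SE 0.18) with an unadjusted p within 0.05. Trophoblast glycoprotein was below 0 in both, at -1.54 and -1.84, and so was sarcosine mitochondrial, at -0.69 and -0.58. The lots share neither pools nor arrays, but the spread in the fit is common to both.

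**Figure D5:**
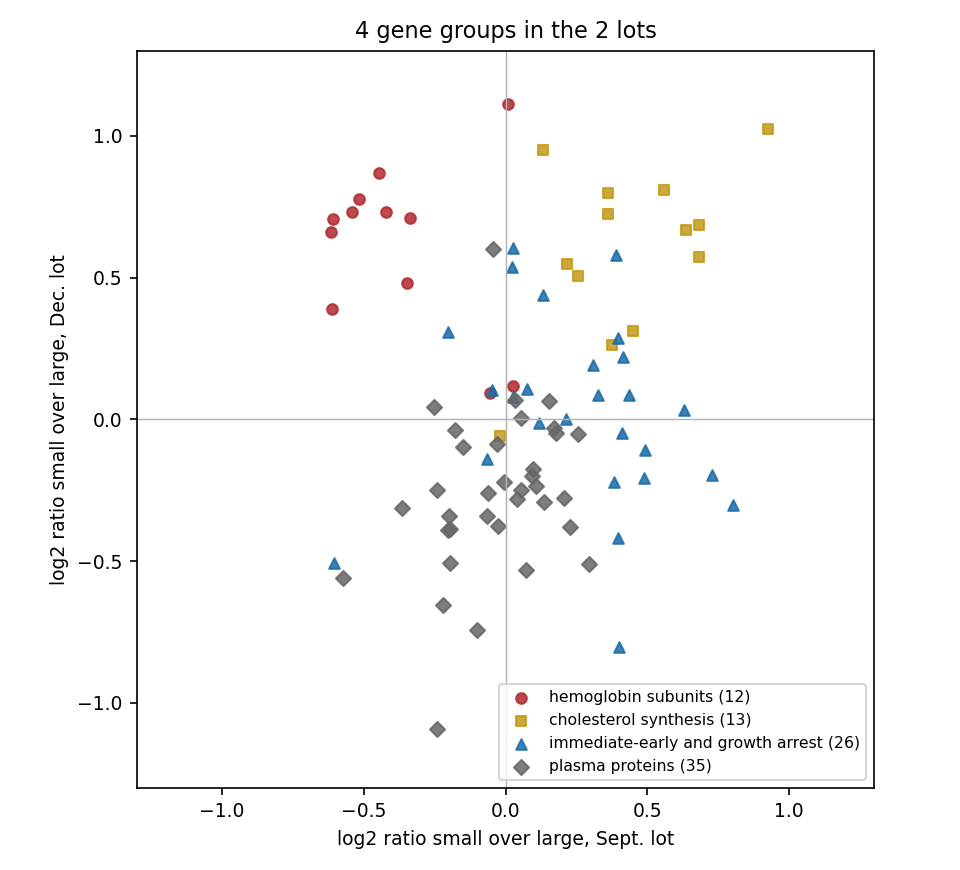
Log2 ratio of small over large fish in the Sept. lot (x axis) and the Dec. lot (y axis) for the probes of 4 gene groups with values in both, 1 point a probe, with the number of probes in the legend. All 12 hemoglobin probes lie above 0 in Dec. and 10 of them below 0 in Sept., and 12 of 13 cholesterol synthesis probes lie above 0 in both.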

How the data were processed

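Liver mRNA of small and large Sept. trout was compared on 4 Agilent salmonid arrays with a channel for each size. According to the methods the authors used GenePix Pro to quantify the spots, discarded those judged bad on manual review and those whose channel signal ratio was too low, and ran lowess normalization inside and between arrays with GeneSpring. As deposited, the values are log2 ratios, and no further centering was applied. The table's 43663 lines include 60 control spots, which were dropped. The direction small over large on every array was settled from the study's Sept. liver lists, since the mean of the 4 ratios has that sign for 575 of 575 entries and matches within 0.02 for 574. Dye flips were averaged, and the pool pairs of both lots were fitted in limma (lmFit, eBayes) with a mean per lot and a shared spread, on probes without empty cells in the lot's 4 arrays. P-values were adjusted by Benjamini-Hochberg over all probes tested. The labels count 4 replicates a lot, but dye flips share RNA, so n is 2. Since the livers were pooled, the arrays do not show the spread between fish; the study's real-time PCR on single Sept. fish was not used here. The number of arrays limits the precision, and single-channel signals were not used here, so nothing can be said of signal over background.

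Names came from the platform's symbols (1 symbol for 221 probes, 104 of them placeholders) and from the lists of liver and muscle genes in the study, which hold only probes the study called. The trout gene table at hand held none of the platform's accessions. Genome positions and probe sequences were not used here. The Sept. arrays, the members and the gene lists were chosen with earlier results of these data known. Named in the text are the probes the study names for the Sept. liver, on either side the 15 named probes with the largest ratios that passed the thresholds and kept 1 sign on all arrays, list members past the thresholds (up to 8 a list), some well known members that are not, and probes that share a name with these. Probes named outside lists, unnamed probes and nattectin were singled out after their values were seen, and some probes of this rule were left out for space. There were 17 alternatives, among them the methods' t-test. The block on pool pair numbers was only an alternative, since the deviations of same-numbered pool pairs of the lots correlated at 0.0319. Tested on simulated data, limma put 200 of 200 probes changed 4-fold among 38679 past the thresholds, 197 of them past an adjusted p of 0.05. The simulated noise was normal and independent between probes, and most ratios reported here are smaller. The simulation therefore checks the fit and does not tell its power for these ratios. The analysis used limma 3.58.1 in R 4.3.3, and in Python 3.11.15 pandas 2.3.3, numpy 2.4.6 and matplotlib 3.10.9.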

Additional observations from a re-analysis of the deposited data

Results flagged for a closer look

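Among the 28 leading probes, which were chosen with their Sept. ratios known, 6 had opposite signs in the Sept. and Dec. lots and a difference with an unadjusted p within 0.05 in limma. Of all 33291 probes tested 917 (2.75%) reached that p for the difference, whatever the signs, and none of the 6 had an adjusted p under 0.05. Hemoglobin alpha (A_05_P249524) differed by -1.28, with -0.62 (SE 0.14) in Sept. and 0.66 (SE 0.14) in Dec. Hemoglobin beta-1 (A_05_P453042) differed by -1.32, with -0.61 (SE 0.14) and 0.71 (SE 0.14). The homolog of cell division control protein 2 differed by -1.06, with -0.44 (SE 0.14) and 0.62 (SE 0.14). On these probes the large fish were higher in Sept. and the small fish in Dec. In the opposite order, jun-B differed by 0.92, with 0.73 (SE 0.13) and -0.20 (SE 0.13), thioredoxin by 2.35, with 1.67 (SE 0.61) and -0.68 (SE 0.61), and lipocalin by 3.35, with 1.42 (SE 0.46) and -1.93 (SE 0.46). The jun-B and thioredoxin probes were not past the thresholds in Dec. alone.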

How the results depend on the processing

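Of 17 alternatives, several moved the count of probes past the thresholds by over 1.5 times from 1054 (587 higher in small and 467 in large fish). The Sept. lot fitted alone gave 1611 (886 and 725), and a fold of at least 1.5 gave 569 (334 and 235). A t-test over the 4 arrays, as named in the methods, gave 648 (356 and 292). The study itself listed 575 Sept. probes at these thresholds, most of them higher in small fish. A t-test over the 2 pool pairs, which the methods do not describe, gave 442 (233 and 209), 4 with an adjusted p under 0.05. The 647 arrays alone gave 1606 (682 and 924) and the 555 arrays alone 1915 (1491 and 424). Turning the sign of the 555 arrays gave 3664, with 1089 above and 2575 below 0. That setting measures the difference between the dye orientations and not a size effect. Leaving out 1 pool pair gave 1212 to 1832 probes, with 726 to 1078 higher in small and 486 to 754 in large fish, a lone pair being assumed to vary like those of Dec. The pool pair number as a replicate block over both lots gave 2131, with 1213 and 918; the numbers do not pair the samples, and with 2 pairs a lot the block has no bearing on the size of an effect. Apart from the t-test over pool pairs, no setting gave a probe with an adjusted p under 0.05.

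Turning that sign goes against the direction settled from the lists, and the turned value sets the 647 arrays against the 555 arrays. Its sign was opposite to the main ratio for 17 of 28 leading probes, which only shows which orientation was higher. The turned value was -0.36 for glutathione S-transferase P, -1.23 for TERF1-interacting nuclear factor 2, -0.61 for thioredoxin, -0.56 for beta-galactosyltransferase 1, -0.38 for lipocalin, 0.026 for trophoblast glycoprotein, -0.28 for IGFBP1, -0.39 for sec61 gamma, -0.051 for defensin beta 3, -0.60 for isopentenyl-diphosphate isomerase 1, 0.17 for methionine adenosyltransferase alpha, -0.48 for dual specificity phosphatase 1, -0.38 for jun-B, 0.034 for hemoglobin beta-1, 0.017 for enolase 3-2, -0.24 for proteasome alpha type-3 and -0.52 for elongation protein 1. Under the other settings none of the 28 changed sign. A t-test over the 2 pool pairs took the call from 19 of them, and a t-test over the 4 arrays from 11. Among those that lost it in both were IGFBP1, thioredoxin, sec61 gamma, isopentenyl-diphosphate isomerase 1, dual specificity phosphatase 1, jun-B and TERF1-interacting nuclear factor 2. Glutathione S-transferase P and lipocalin were among those that lost it over the pool pairs only. On the 647 arrays alone 12 lost their call, and on the 555 arrays alone 5.

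Without pool pair 1, 7 lost it, among them isopentenyl-diphosphate isomerase 1 at 0.69, hemoglobin alpha A_05_P249524 at -0.51 and beta-1 at -0.59, and sarcosine mitochondrial at -0.59. Without pool pair 2, 13 lost it, among them IGFBP1 at 0.42, thioredoxin at 0.65, lipocalin at 0.98, dual specificity phosphatase 1 at 0.73, methionine adenosyltransferase alpha at -0.53, zona pellucida glycoprotein at -0.56, enolase 3-2 at -0.57 and proteasome alpha type-3 at 0.57. The causes were not tested.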
